A study of Mus musculus with 41 samples.

Results

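Gene expression in Drd1-expressing neurons of the mouse dorsal striatum was compared between an escalating cocaine group and a saline group, 24 hours after the last of their self-administration sessions. The 10 libraries compared are the 5 escalating and the 5 saline immunopurified libraries that the labels assign to that time, of 41 libraries in the series. They were chosen by group, time and sample type alone, and no measured value was used. All came from adult mice of the Drd1-EGFP/Rpl10a line CP73, from an FVB/N-Swiss Webster background crossed to C57BL/6 for 9 generations or more. In this line the ribosomal protein L10a, fused to EGFP, is driven by the regulatory sequence of the dopamine D1 receptor gene, and both groups carry it. The saline group self-administered saline and the escalating group cocaine, by the intravenous route and under long access. The rule that placed a mouse in the escalating group, and whether a library came from 1 animal or from a pool, are not stated in the labels. The p-values therefore measure the spread between libraries, which may be technical in part. The main fit takes that spread from all 19 purified libraries of this time, which include 9 from a nonescalating cocaine group. Beyond the 10 compared, the series holds those 9, 20 libraries from the same 3 groups about 1 month later, and 2 of unpurified saline input RNA. At both times the nonescalating labels hold 2 runs of replicate numbers. What the runs stand for is not stated, and the fits treat them as 1 group. At 1 month the later run and the escalating libraries are labelled self administration, where the other purified libraries are labelled extended self administration.

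Translating ribosome affinity purification (TRAP) captures tagged ribosomes with antibodies against EGFP, so that the mRNAs they carry come mostly from the cells that express the tag. Here these are the D1-type medium spiny neurons, which send the direct pathway from the striatum to the output nuclei of the basal ganglia. Cocaine blocks dopamine reuptake, and dopamine acting at the D1 receptor raises cyclic AMP in these cells and induces activity-dependent transcription factors. Escalation, in which animals take more drug from session to session under long access, is used as a model of the loss of control over intake. In purified RNA a lower level can come from fewer cells of a type or from less RNA per cell, and the 2 cannot be told apart.

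The libraries held between 5394332 and 12889230 counts on named genes. Saline replicate 5 was the shallowest, with 11856 genes detected against 13531 to 16648 in the other 9, and 42.3% of its reads fell in no annotated gene against 15.9% to 27.1%. Sums of marker genes of some other cell types were also highest in this library. Its summed level of 13 endothelial and mural genes was 2116 CPM (counts per 1e6 counts, on library sizes scaled by the trimmed mean of M values) against 21.9 to 591 in the other 9. Astrocyte genes summed to 1996 CPM in it against 601 to 1105, and oligodendrocyte genes to 623 against 126 to 395. The 2 inputs, on unscaled library sizes, were below it for endothelial and mural genes, at 54.0 and 60.5 CPM. They were above it for astrocyte genes, at 2722 and 3053 CPM, and for oligodendrocyte genes, at 2360 and 2521. The source of its endothelial and mural counts was not tested. For many results, though not for all, the value without saline replicate 5 is given beside the value with it. Drd1 was at 562, 661, 427, 868 and 655 CPM in saline replicates 1, 2, 3, 5 and 6, and at 656, 651, 597, 609 and 594 in escalating replicates 1 to 5. The escalating values lay inside the saline range. Drd2, the marker of the other class of medium spiny neuron, was at 14.2 to 52.2 CPM in all 10, and summed D2 markers were at 292 to 633 CPM against 1726 and 1856 in the 2 inputs.

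**Figure D1:**
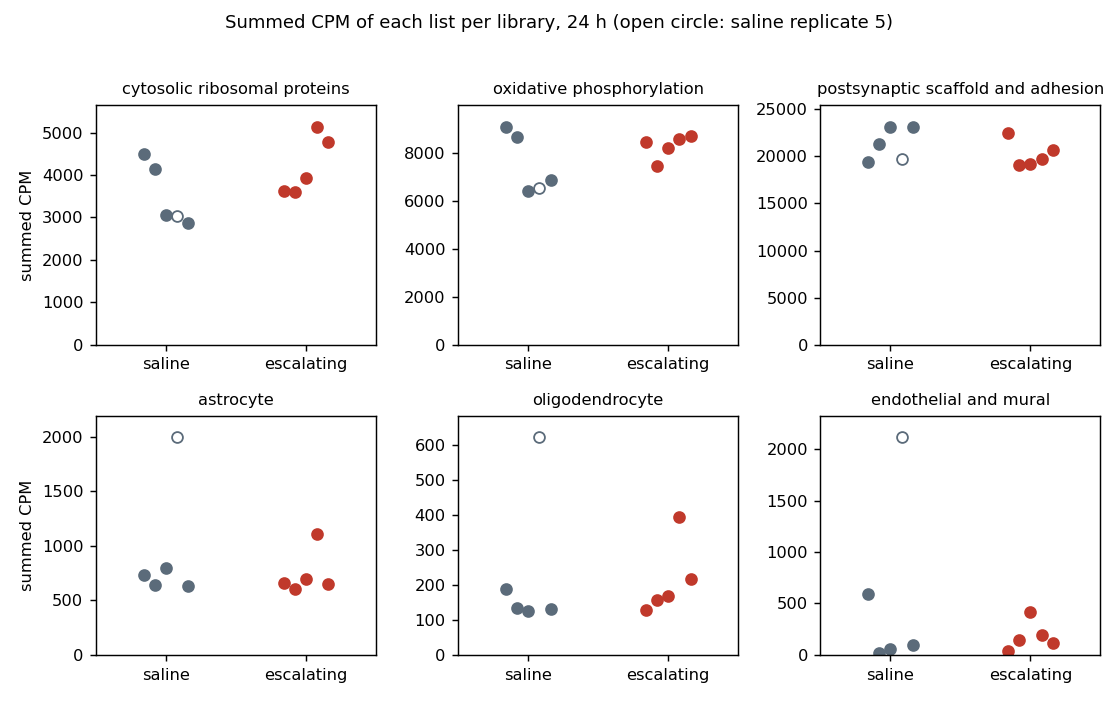
Summed CPM of 6 gene lists in each of the 5 saline and 5 escalating libraries at 24 h, with 1 circle per library and saline replicate 5 as an open circle. Saline replicate 5 stood at 1996 CPM for astrocyte, 623 for oligodendrocyte and 2116 for endothelial and mural genes, above the other 9 libraries, while the ribosomal protein and oxidative phosphorylation sums of the groups overlapped.

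No gene passed the test between the escalating and saline libraries. edgeR's quasi-likelihood test, fitted to the 19 purified libraries of this time, called 0 of 13437 genes at a Benjamini-Hochberg adjusted p under 0.05 (0.0% in each direction). At an unadjusted p under 0.05 there were 508 genes higher (3.78%) and 925 lower (6.88%) in the escalating libraries, 10.7% in all. A fit that left out saline replicate 5 again called 0, of 13811 genes, and the unadjusted counts were 598 higher (4.33%) and 706 lower (5.11%). DESeq2, a second count model, called 17 higher (0.114%) and 35 lower (0.236%) of 14857 genes, and limma's voom with quality weights called 0. An edgeR fit that shared its spread over all 39 purified libraries called 12 higher (0.079%) and 31 lower (0.204%) of 15190. The 5 escalating values lay entirely above the 5 saline values in 124 genes (0.923%) and entirely below in 70 (0.521%). Leaving out saline replicate 5 made those counts 224 (1.67%) and 194 (1.44%). The genes described below are therefore differences between these libraries that did not pass the main test, ordered by p.

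Among genes higher in the escalating libraries, Fth1 had the lowest p. It encodes the ferritin heavy chain, which oxidises iron for storage in the ferritin shell, and lies on chromosome 19 from 9980598 to 9985098. It was at 169, 155, 118, 147 and 159 CPM in saline replicates 1, 2, 3, 5 and 6, and at 222, 226, 305, 323 and 264 CPM in escalating replicates 1 to 5. Every escalating library lay above every saline library. Its log2 fold change was 0.84 ± 0.16 (standard error of the fit; adjusted p = 0.194), the same to 2 decimals without saline replicate 5 and between 0.77 and 0.90 when any other of the 10 was left out. The iron genes as a list turned with saline replicate 5. Of 18 tested iron-handling genes 8 had positive fold changes with it (median -0.11, against -0.04 over all genes), and 13 without it (median 0.17, against -0.0031 over all genes). Ncoa4, the receptor that delivers ferritin to lysosomes, was at 0.78 ± 0.34, and Tfrc, the transferrin receptor, at -1.01 ± 0.57, or 0.19 ± 0.43 without saline replicate 5. The promoters of Fth1 and Ttc7b, the gene with the lowest p in each direction, are shown as the 250 bases before a RefSeq start (GRCm38.p6), with each match to the GC box GGGCGG, on either strand, in capitals.
Fth1, chr19:9982396-9982645, plus strand: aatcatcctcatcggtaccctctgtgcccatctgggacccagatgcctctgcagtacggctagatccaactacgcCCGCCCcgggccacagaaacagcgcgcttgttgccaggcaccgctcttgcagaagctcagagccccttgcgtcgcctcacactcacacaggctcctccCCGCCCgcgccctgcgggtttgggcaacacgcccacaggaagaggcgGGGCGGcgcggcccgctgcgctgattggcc
Ttc7b, chr12:100520823-100521072, minus strand: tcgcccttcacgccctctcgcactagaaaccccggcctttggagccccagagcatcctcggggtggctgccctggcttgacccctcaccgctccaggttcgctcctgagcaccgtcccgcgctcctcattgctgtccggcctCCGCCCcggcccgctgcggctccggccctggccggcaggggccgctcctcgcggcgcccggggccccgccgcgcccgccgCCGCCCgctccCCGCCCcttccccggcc
Each window holds 3 matches. The table holds 2 starts for each of these genes, and the Fth1 window belongs to the downstream one, which lies inside the gene span given above. Of the 20 genes named by lowest p, 16 matched the RefSeq promoter table, and 13 of the 16 hold a GC box at 1 or more of their starts, as do 35.4% of the table's 27025 genes. That table also holds genes that were not tested here, and no share over the tested genes was taken. The shares, here and for the motifs below, are therefore no measure of enrichment. A cyclic AMP response element, TGACGTCA, was in 0 of the 16 and in 1.77% of all genes. The AP-1 motif TGANTCA, bound by Fos and Jun proteins, was in 3 of the 16 and in 7.82% of all genes. The letters of the 3 motifs allow no overlap between matches of different motifs, while GC box matches can overlap each other. The AP-1 windows belong to genes higher in the escalating mean and are shown with the motif in capitals (RefSeq, GRCm38.p6).
Nbas, chr12:13268878-13268938, plus strand: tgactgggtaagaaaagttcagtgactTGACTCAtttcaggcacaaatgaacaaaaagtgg
Sap30bp, chr11:115933609-115933658, plus strand: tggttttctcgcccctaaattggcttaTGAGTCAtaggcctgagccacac
Tomm20, chr8:126946033-126946093, minus strand: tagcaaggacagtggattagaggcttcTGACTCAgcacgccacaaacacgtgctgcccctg
A match describes these letters and does not show that a factor binds there.

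Further genes on the higher side were detected in all 10 libraries. Hnrnpul2, a nuclear RNA-binding protein gene, was at 277, 332, 233, 233 and 270.4 CPM in the saline libraries. In the escalating ones it was at 364, 356, 381, 440.3 and 426, with no overlap (log2 fold change 0.55 ± 0.14, adjusted p = 0.329). Ybx1, whose Y-box protein packages mRNA, was at 88.0 to 128 CPM after saline and 132 to 177 in escalating libraries (0.56 ± 0.15). Actn2, an actin crosslinker of dendritic spines, was at 57.1, 57.8, 71.5, 29.7 and 62.4 CPM against 83.5, 74.5, 102, 111 and 131. Again no library of the groups overlapped, and the log2 fold change was 0.85 ± 0.22, or 0.69 ± 0.19 without saline replicate 5. Tomm20, a receptor for protein import into mitochondria, was at 275 to 403 CPM against 398 to 573 (0.53 ± 0.14), with 1 saline library above the lowest escalating one. Gpatch11, a G-patch protein gene, was at 15.6 to 32.9 CPM against 32.7 to 55.1 (1.01 ± 0.26), with the same overlap of 1 library.

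Other genes on the higher side rested on few counts or on a single library. Otud3, a deubiquitinase gene, was at 0.0 to 0.5 CPM in saline and 0.8 to 3.5 in escalating libraries. Ccdc37 had 0, 2, 0, 0 and 2 counts in the saline libraries and 36, 13, 81, 5 and 25 in the escalating ones. The fitted log2 fold changes of this pair, 3.30 ± 0.88 and 5.03 ± 1.34, depend on the small count added by the fit. Sap30bp, whose product binds a histone deacetylase subunit, was at 519 CPM in escalating replicate 5 and at 10.1 to 18.7 in the other 4, against 3.5 to 17 after saline. Its log2 fold change of 3.15 ± 0.84 became 0.15 without that library. Nbas, a gene of Golgi-to-endoplasmic reticulum transport, was at 164 CPM in the same library, at 34.6 to 48.0 in the other 4 and at 18.7 to 32.0 after saline. Here the groups did not overlap, and the log2 fold change of 1.41 ± 0.36 became 0.73 without that library.

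**Figure D2:**
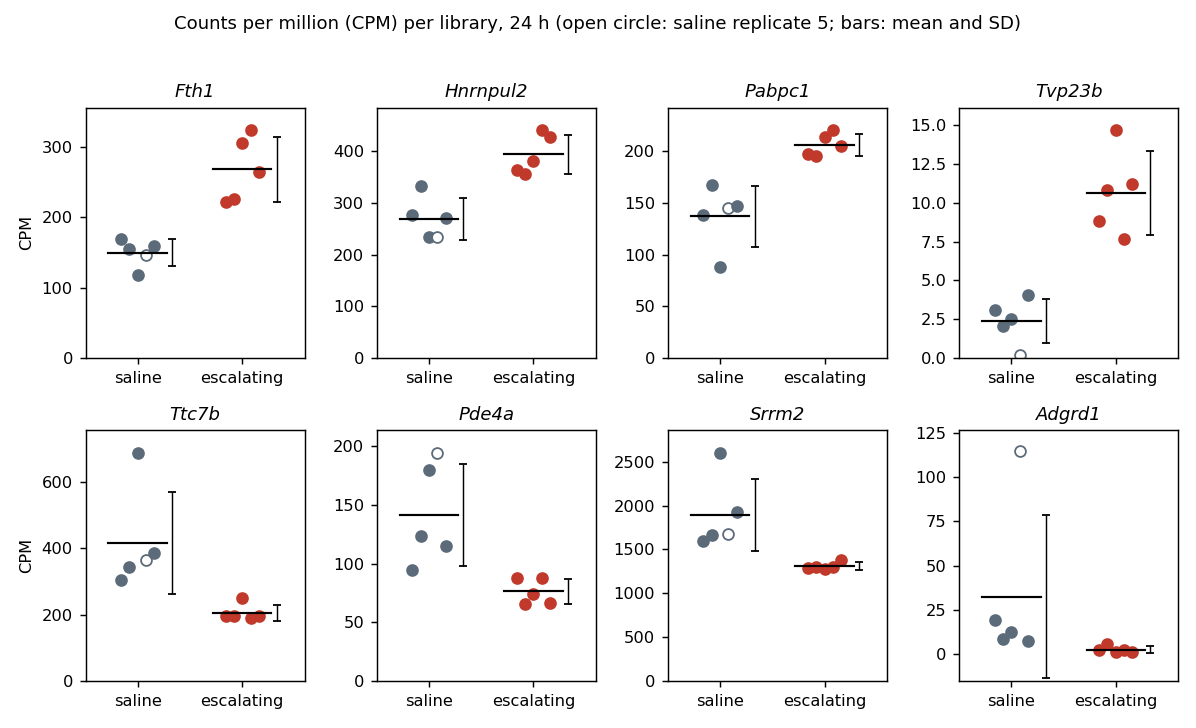
CPM per library at 24 h for 4 genes higher and 4 genes lower in the escalating mean, with 1 circle per library, saline replicate 5 as an open circle, horizontal bars at the mean and error bars of 1 SD beside them (n = 5 a group). The groups do not overlap in any of the 8 panels, and the spread on the lower row comes mostly from saline replicate 3 for Ttc7b and Srrm2 and from saline replicate 5 for Adgrd1.

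On the lower side Ttc7b had the lowest p. Its product is a scaffold of the complex that holds phosphatidylinositol 4-kinase alpha at the plasma membrane, and the gene lies on chromosome 12 from 100300770 to 100520826. It was at 304, 344, 687, 365 and 385 CPM in saline replicates 1, 2, 3, 5 and 6 and at 197, 196, 249, 188 and 197 CPM in escalating replicates 1 to 5. Every escalating library lay below every saline library, and saline replicate 3 was far above the other 4. The log2 fold change was -1.02 ± 0.20 (adjusted p = 0.194), -1.06 ± 0.20 without saline replicate 5 and -0.77 without saline replicate 3. Of 24 phosphoinositide kinase and complex genes 12 had negative fold changes (median -0.01), and 3 were lower and 0 higher at an unadjusted p under 0.05, where 6.88% of all genes were lower and 3.78% higher. The list had 2 lower and 3 higher without saline replicate 5, where 5.11% of all genes were lower and 4.33% higher. The 3 lower with all libraries were Ttc7b, its paralogue Ttc7 (-1.12 ± 0.43, at 4.0 to 11.9 CPM after saline and 2.8 to 5.3 in escalating libraries) and Efr3a, the membrane anchor of the complex. Efr3a was at -1.36 ± 0.61, or -0.62 ± 0.54 without saline replicate 5. Fam126b, a further gene of the complex, was at 0.34 ± 0.20.

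Pde4a, a cyclic AMP phosphodiesterase gene, was at 94.8, 124, 179.7, 194 and 115 CPM in the saline libraries and 87.5, 65.8, 74.3, 87.3 and 66.3 in the escalating ones. The groups did not overlap, with 87.5 against 94.8 at the boundary, and the log2 fold change was -0.89 ± 0.20 (adjusted p = 0.290). Other phosphodiesterase genes did not share it: of 15 tested, 9 had positive fold changes (median 0.06). Pde4d was the reverse case, at 66.7 to 84.0 CPM after saline and 85.9 to 112 in escalating libraries, without overlap (0.33 ± 0.21). Klf7, a Kruppel-like transcription factor of neurons, was at 93.5, 86.7, 149.8, 247 and 73.6 CPM against 56.5, 49.5, 48.2, 49.4 and 49.5. All saline libraries were higher, and the log2 fold change was -1.36 ± 0.31, or -0.99 ± 0.26 without saline replicate 5. Csdc2, a cold-shock domain RNA-binding protein gene, was at 50.03 to 153 CPM against 33.8 to 53.6 (-1.34 ± 0.29). Pou2f2, a POU-domain transcription factor gene, was at 10.5 to 70.3 CPM against 3.6 to 7.8, without overlap (-2.44 ± 0.52). The 70.3 CPM belong to saline replicate 5, and without it the log2 fold change was -1.81 ± 0.45.

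Nnat, Mmp24, Adgrd1, Adamts17 and Smg9 also ranked among the lowest p on this side, and in each saline replicate 5 was far above the rest. Nnat, the imprinted neuronatin gene, was at 21.1, 49.9, 89.4 and 238 CPM in saline replicates 1, 2, 3 and 6, at 3163 in replicate 5, and at 13.5 to 52.4 in the escalating libraries. Its log2 fold change was -4.70 ± 0.97 with and -1.87 ± 0.52 without that library. Adgrd1, an adhesion G protein-coupled receptor gene, was at 19.4, 8.5, 12.2, 115 and 7.3 CPM after saline and at 0.9 to 5.5 in the escalating libraries. The groups did not overlap, and without saline replicate 5 the log2 fold change went from -3.78 ± 0.75 to -2.32 ± 0.57. The metalloproteinase genes Mmp24 and Adamts17 went from -2.56 ± 0.57 to -1.21 ± 0.36 and from -4.77 ± 1.16 to -2.26 ± 0.96. Smg9, of the nonsense-mediated decay machinery, went from -1.71 ± 0.41 to -1.06 ± 0.32. The raised endothelial, astrocyte and oligodendrocyte sums of that library stand beside these values, and their part in them was not tested.

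**Figure D3:**
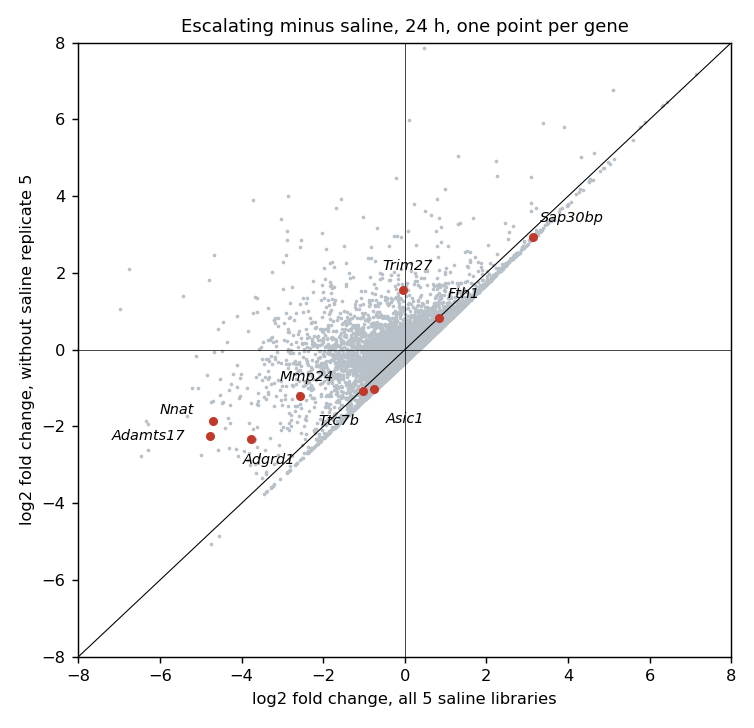
Log2 fold changes between escalating and saline libraries at 24 h for each gene tested in both fits, with all 5 saline libraries on the x axis and without saline replicate 5 on the y axis. Fth1 and Ttc7b lie close to the line of equal values, Nnat, Mmp24, Adgrd1 and Adamts17 lie closer to 0 without that library, and Trim27 goes from -0.05 to 1.57.

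With saline replicate 5 left out, Fth1 kept the lowest p on the higher side, followed by Ssrp1 and Trim27. Ssrp1, a subunit of the histone chaperone FACT, was at 65.9 to 81.1 CPM in the other 4 saline libraries, at 145 in replicate 5, and at 91.0, 114, 161, 126 and 135 in the escalating libraries. Its log2 fold change was 0.76 ± 0.17 without that library (adjusted p = 0.301) and 0.51 ± 0.20 with it. Trim27, a ubiquitin ligase gene, was at 4.6 to 7.3 CPM in the 4 saline libraries, at 63.0 in replicate 5 and at 10.5 to 22.6 in the escalating ones, so that a log2 fold change of 1.57 ± 0.38 became -0.05 ± 0.60 with it. On the lower side Ttc7b was followed by Asic1 and Prrt2. Asic1, an acid-sensing sodium channel gene, was at 130.4, 139, 273 and 166 CPM in saline replicates 1, 2, 3 and 6, at 32.5 in replicate 5, and at 72.9 to 95 in the escalating libraries. The log2 fold change was -1.02 ± 0.20 without replicate 5, -0.76 ± 0.31 with all libraries and -0.43 without replicate 3. Prrt2, a presynaptic protein gene, was at 615 to 794 CPM against 451 to 560.3, with replicate 5 at 174 (-0.53 ± 0.12 without it and -0.29 ± 0.24 with it).

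The calls of the other fits shared a small core. Of the 52 DESeq2 calls, 26 (50%) were also among the 43 of the 39-library fit, of which they made up 60.5%. Without saline replicate 5 DESeq2 called 47 genes, 19 higher (0.201%) and 28 lower (0.296%), and 20 of these were called with it, 38.5% of the first list and 42.6% of the second. The 11 genes called in all 3 settings were Fth1 and Tvp23b on the higher side and Ttc7b, Adgrd1, Csdc2, Pou2f2, Pde4a, Eif5a, Srrm2, Stard5 and Ppapdc1b on the lower side. Of these Tvp23b, Srrm2, Stard5 and Ppapdc1b are outside the naming rule and were chosen after their values were seen. Eif5a meets the rule as a member of the translation factor list. Tvp23b, a Golgi membrane protein gene, was at 0.2 to 4.1 CPM after saline and 7.6 to 14.7 in the escalating libraries (2.13 ± 0.57). Srrm2, a large scaffold protein of splicing speckles, was at 1596, 1665, 2599, 1675 and 1926 CPM against 1285, 1299, 1276, 1302 and 1385, without overlap. Its log2 fold change was -0.53 ± 0.13, and -0.39 without saline replicate 3. Eif5a, a translation elongation factor gene, was at 207 to 495 CPM against 116 to 223, with escalating replicate 2 inside the saline range (-0.93 ± 0.23, and -0.65 without saline replicate 3).

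Cytosolic ribosomal protein genes were mostly positive. Of 80 tested cytosolic ribosomal protein genes 67 had positive fold changes (47.0% of all genes did), with a median of 0.35 against -0.04 over all genes. At an unadjusted p under 0.05, 9 were higher and 0 lower, against 3.78% and 6.88% of all genes. Leaving out saline replicate 5 made these counts 15 and 1, against 4.33% and 5.11% of all genes, with a median of 0.30. No member passed adjustment over all genes. Rpl8 was at 36.3, 34.7, 18.1, 11.4 and 22.9 CPM in the saline libraries and 44.9, 36.5, 42.1, 59.2 and 53.8 in the escalating ones, where every value was higher. Rps9 was at 11 to 51.9 CPM against 34.2 to 63.3 in escalating replicates 1 to 4 and 217 in replicate 5, so that its log2 fold change of 1.34 ± 0.44 became 0.52 without that library. The summed level of the list was 4485, 4133, 3048, 3031 and 2876 CPM after saline and 3631, 3589, 3928, 5131 and 4785 in the escalating libraries. The sums overlapped, with saline replicates 1 and 2 as high as the escalating libraries and the other 3 below all of them. Many ribosomal protein genes have processed pseudogenes that can share reads, so single members are uncertain.

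Other lists of protein synthesis and energy metabolism had smaller medians. Of 40 translation factor genes 26 were positive (median 0.15), with 5 higher and 1 lower at an unadjusted p under 0.05, against 3.78% and 6.88% of all genes. There were 5 higher and 3 lower (median 0.11) without saline replicate 5, against 4.33% and 5.11% of all genes. The mitochondrial ribosomal protein median turned with that library. With it 46 of 75 were positive (median 0.12, with 2 higher and 2 lower), against 47.0% of all genes. Without it 34 of 75 were positive (median -0.07, with 4 higher and 1 lower), against 49.8% of all genes. The shares of all genes higher and lower in each fit are those just given. Pabpc1, the cytoplasmic poly(A)-binding protein gene, was at 138, 167, 88.2, 145 and 147 CPM after saline and at 197, 196, 214, 219.9 and 205 in the escalating libraries, without overlap (0.59 ± 0.17). Eif4b, an initiation factor gene, was at 156 to 376 CPM against 328 to 411 (0.64 ± 0.19). Of 79 oxidative phosphorylation genes 68 had positive fold changes (median 0.26). At an unadjusted p under 0.05, 5 were higher and 1 lower, against 3.78% and 6.88% of all genes. Without saline replicate 5 the positive count was 52 of 79, where 49.8% of all genes were positive, and the median 0.11. That fit again had 5 higher and 1 lower, against 4.33% and 5.11% of all genes. Atp5c1, the gamma subunit of ATP synthase, was at 107 to 174 CPM after saline and 185 to 228 in the escalating libraries (0.48 ± 0.19). Among 31 proteasome genes 24 were positive (median 0.24, or 0.08 without saline replicate 5), against 47.0% of all genes. Psmd2, of the regulatory particle, was at 66.3 to 90.7 CPM against 93.7 to 135 (0.55 ± 0.17). The list of endoplasmic reticulum stress and heat shock genes had a median of 0.24 over 28 genes, with Hsp90b1, an endoplasmic reticulum chaperone, at 0.53 ± 0.20 and Dnajb9, a stress-induced co-chaperone, at -0.97 ± 0.38, or -0.48 ± 0.32 without saline replicate 5.

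Postsynaptic scaffold and adhesion genes were mostly negative. Of 34 tested 11 had positive fold changes (median -0.24), against 47.0% of all genes, and 9 were lower and 0 higher at an unadjusted p under 0.05, against 6.88% and 3.78% of all genes. Without saline replicate 5 the median was -0.20, with 6 lower and 0 higher, where 5.11% of all genes were lower and 4.33% higher. Nlgn3, the neuroligin 3 adhesion gene, was at 248.4, 336, 446, 409 and 323 CPM after saline and at 248.6, 238, 241, 214 and 233 in the escalating libraries. Saline replicate 1 was level with escalating replicate 1 and the other 4 saline libraries were higher (-0.58 ± 0.15). Iqsec2, an exchange factor for Arf6 at excitatory synapses, was at 111 to 307 CPM against 99.96 to 124 (-0.68 ± 0.23), and its paralogue Iqsec1 was at -0.55 ± 0.19. Homer2, a scaffold of metabotropic glutamate receptors, was at 85.7 CPM in saline replicate 5 and at 2.7 to 12.3 in the other 4, and its log2 fold change of -2.32 ± 0.82 became -0.55 ± 0.64 without that library.

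Among presynaptic genes the direction was mixed, with 16 of 38 positive (median -0.09). Syn1, which tethers synaptic vesicles, was at 786 to 1318 CPM after saline and at 440.3 to 903 in the escalating libraries (-0.63 ± 0.21). Vamp2, the vesicle SNARE, was at 1319.9 to 1923 CPM against 1189.5 to 1247, with every escalating library lower (-0.37 ± 0.13). Potassium channel genes had 12 of 40 positive (median -0.17), with 5 lower and 0 higher at an unadjusted p under 0.05, where 47.0% of all genes were positive, 6.88% lower and 3.78% higher. The list again had 5 lower and 0 higher (median -0.15) without saline replicate 5, where 5.11% of all genes were lower and 4.33% higher. Kcna6 was at -1.18 ± 0.36, or -0.81 ± 0.32 without that library, and Kcnc1 at -0.51 ± 0.19, while Kcnk2 went from -0.94 ± 0.38 to -0.04 ± 0.21 without saline replicate 5. Cacna2d2, an auxiliary calcium channel subunit, was at 156 to 203 CPM after saline and 83.0 to 132 in the escalating libraries, without overlap (-0.59 ± 0.18). The related Cacna2d3 was higher in the escalating mean, at 149 to 183 CPM against 179.5 to 320.4 (0.47 ± 0.16). Gria2, the AMPA receptor subunit that sets calcium permeability, was at 654 to 919 CPM against 872 to 1136 (0.35 ± 0.12), and 16 of 25 glutamate receptor genes were positive (median 0.12). There were 14 of 25 (median 0.03) without saline replicate 5, where 49.8% of all genes were positive.

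**Figure D4:**
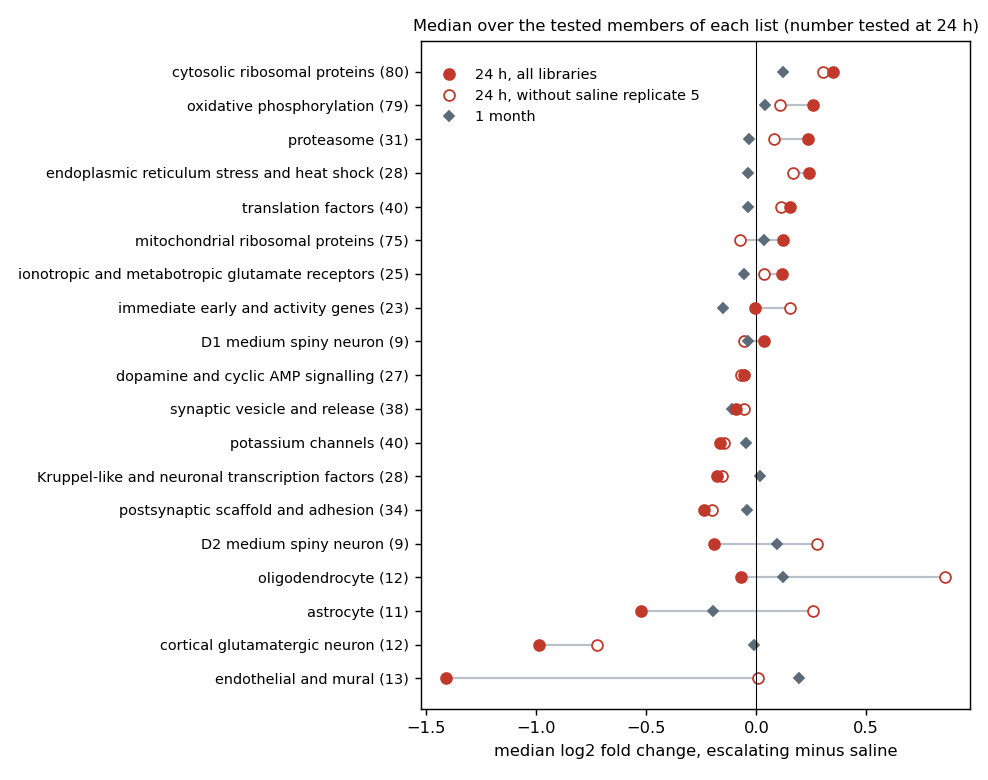
Median log2 fold change between escalating and saline libraries over the tested members of 19 lists, with filled circles for all libraries at 24 h, open circles without saline replicate 5, and diamonds for 1 month. The ribosomal protein median stays at 0.30 or above at 24 h, while the endothelial and mural median goes from -1.41 to 0.01 when saline replicate 5 is left out.

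Markers of D1 neurons and of dopamine signalling stayed near 0. The median was 0.04 over 9 D1 markers, 0.01 over 19 markers shared by medium spiny neurons and -0.06 over 27 dopamine and cyclic AMP signalling genes. Without saline replicate 5 these medians were -0.06, -0.03 and -0.07, and 3 of the 9 D1 markers were positive, against 6 with it. Prkaca, the catalytic subunit of protein kinase A, was at 229, 215, 294, 115 and 330.4 CPM after saline and 149.9, 119, 142, 174 and 205 in the escalating libraries (-0.59 ± 0.23). Saline replicate 5 was below all escalating libraries and the other 4 saline libraries above them, and the value without it was -0.76 ± 0.19. The neuropeptide genes Pdyn (0.30 ± 0.23), Tac1 (0.04 ± 0.32) and Penk (-0.19 ± 0.24) did not pass the test, and their groups overlapped. Without saline replicate 5 Pdyn was at 0.11 ± 0.18, Tac1 at -0.06 ± 0.33 and Penk at -0.17 ± 0.25. The wider list of neuropeptide and opioid system genes had 7 of 19 positive (median -0.23), against 47.0% of all genes. At an unadjusted p under 0.05, 4 were lower and 0 higher, against 6.88% and 3.78% of all genes. Leaving out saline replicate 5 gave 5 lower and 0 higher of 20 (median -0.18), against 5.11% and 4.33% of all genes. Rpl10a, whose counts can include those of the transgene, was at 83.0 to 443 CPM after saline and 157 to 304 in the escalating libraries. The 83.0 CPM belong to saline replicate 5, and the log2 fold change was -0.31 ± 0.29 with it and -0.53 ± 0.23 without it.

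Immediate early genes, which neurons induce within minutes of activity, had 11 of 23 positive fold changes (median -0.01). Without saline replicate 5 there were 12 of 23 (median 0.15). Fos had 2, 1, 94, 0 and 0 counts in saline replicates 1, 2, 3, 5 and 6 and 74, 59, 45, 22 and 62 in escalating replicates 1 to 5. Saline replicate 3 alone was above the escalating libraries and the other 4 were near 0. The log2 fold change was 1.26 ± 1.23 (adjusted p = 0.760), and 5.73 without saline replicate 3, where adjusted p was 0.327. The same saline library was the highest of its group for Npas4 (44.3 CPM against 0.0 to 7.3), Arc (125 against 31.2 to 59.2) and Egr1 (1501 against 567.7 to 1033). In escalating libraries Npas4 was at 6.8 to 36.4 CPM, Arc at 44.0 to 138 and Egr1 at 884 to 1594. Ier5 was at 7.1 to 41.4 CPM after saline and 32.5 to 65.2 in the escalating libraries (1.01 ± 0.35), Egr2 at 1.16 ± 0.56 and Nr4a1 at 0.91 ± 0.47. Bdnf, encoding a growth factor, had 5, 5, 35, 0 and 15 counts after saline and 0, 0, 0, 1 and 5 in the escalating libraries. Fosb, whose stable product accumulates with repeated drug exposure, was at 9.8 to 44.3 CPM against 22.2 to 43.5 (-0.09 ± 0.35, or -0.31 ± 0.29 without saline replicate 5).

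Marker lists of other cells show what the purified RNA also held. Cortical glutamatergic markers, from neurons that lie next to the striatum, had 1 of 12 positive fold changes (median -0.99, or -0.72 without saline replicate 5), and their sums were 245, 195, 225, 422 and 154 CPM after saline and 162, 128, 164, 135 and 286 in the escalating libraries. The sums overlapped. Tbr1, a cortical transcription factor, was at 17, 6.4, 13.3, 33.1 and 0.6 CPM against 1.8, 0.1, 0.0, 0.1 and 11.1 (-2.42 ± 1.11). Astrocyte and endothelial medians of -0.52 and -1.41 became 0.26 and 0.01 without saline replicate 5, and oligodendrocyte genes went from -0.07 to 0.86, with escalating replicate 4 the highest at 395 CPM. Oligodendrocyte RNA in purified libraries was far below the inputs, at 2360 and 2521 CPM. Endothelial and mural sums were not below the inputs throughout. They were at 21.9 to 2116 CPM after saline and 36.9 to 420 in the escalating libraries, against 54.0 and 60.5 in the inputs. Interneuron markers had 4 of 8 positive fold changes (median 0.36), and 6 of 9 without saline replicate 5 (median 0.56). Among them Sst was at 50.9, 47.7, 131, 0.8 and 5.7 CPM after saline and 10.4 to 25.3 in the escalating libraries (-1.60 ± 0.71, and -0.76 without saline replicate 3). No member of any of these lists is at 0 counts in all 10 libraries, apart from 3 ependymal and choroid plexus genes. Their part in the results above was not tested.

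The nonescalating group tests whether a difference from saline was larger where intake escalated. The edgeR count between escalating and nonescalating libraries was 0 of 13437 genes (0.0%), with 243 higher (1.81%) and 294 lower (2.19%) at an unadjusted p under 0.05, 4.0% in all. DESeq2 also called 0, and the 39-library fit called 2. These were Sap30bp, which rests on escalating replicate 5, and Cyb5d1 (3.40 ± 0.60, adjusted p = 0.0208), a gene named here after its value was seen. Both cocaine groups were set against the same 5 saline libraries, so their fold changes are not independent and are given side by side. Nonescalating against saline also had 0 calls, with 11.9% of genes at an unadjusted p under 0.05. Ttc7b was at -1.02 ± 0.20 in escalating and -0.97 ± 0.17 in nonescalating libraries against saline, Pde4a at -0.89 ± 0.20 and -0.91 ± 0.17, and Klf7 at -1.36 ± 0.31 and -1.22 ± 0.26. Fth1 was at 0.84 ± 0.16 and 0.52 ± 0.15. Its direct difference of 0.32 ± 0.14 had adjusted p = 0.999. Ribosomal protein genes had a median of 0.35 for escalating and 0.06 for nonescalating libraries against saline. Set directly against nonescalating libraries, 62 of 80 were positive (median 0.29, with 47.9% of all genes positive), with 10 higher and 0 lower at an unadjusted p under 0.05. Oxidative phosphorylation genes had medians of 0.26 and 0.00, and 67 of 79 were positive in the direct comparison (median 0.28), with 2 higher and 2 lower. Postsynaptic scaffold and adhesion genes had medians of -0.24 and -0.19, with 15 of 34 positive in the direct comparison (median -0.09). Potassium channel genes had medians of -0.17 and -0.16, with 22 of 40 positive in the direct comparison (median 0.06). For presynaptic genes the medians were -0.09 and 0.01.

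**Figure D5:**
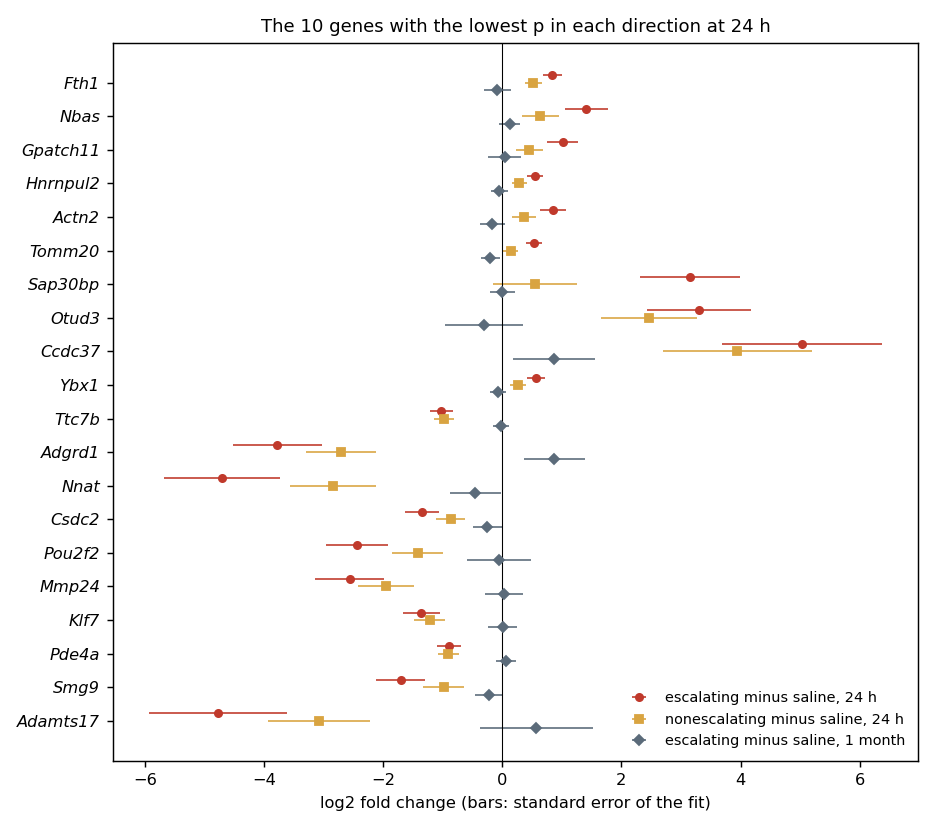
Log2 fold changes with standard errors for the 10 genes with the lowest p in each direction at 24 h, in escalating against saline libraries at 24 h, nonescalating against saline libraries at 24 h, which share the saline libraries, and escalating against saline libraries at 1 month. Ttc7b is at -1.02 and -0.97 at 24 h and at -0.01 at 1 month.

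About 1 month later, in 4 escalating and 5 saline libraries of other samples, 0 of 14488 genes were called by edgeR (0.0%) and 1.29% had an unadjusted p under 0.05. Fth1 was at -0.08 ± 0.22 there, Ttc7b at -0.01 ± 0.13, Pde4a at 0.06 ± 0.16, Klf7 at 0.01 ± 0.24 and Hnrnpul2 at -0.05 ± 0.14. The ribosomal protein median was 0.12, with 65 of 80 positive, against 45.1% of all genes, and 0 at an unadjusted p under 0.05, and the postsynaptic median was -0.04. The difference between the 2 times was tested in 1 fit of the 39 purified libraries, where edgeR called 0 of 15190 genes (0.0%; 7.42% at an unadjusted p under 0.05). DESeq2 called 2, Adgrd1 (4.78 ± 0.87, adjusted p = 0.000899) and Srrm2 (0.79 ± 0.16, adjusted p = 0.0156). In the edgeR fit their adjusted p were 0.103 and 0.443. In the saline group at 24 h, Adgrd1 was at 115 CPM in replicate 5 against 7.3 to 19.4 in the others. Srrm2 was at 2599 CPM in saline replicate 3 against 1596 to 1926. DESeq2 was not run on this difference without these libraries. Levels in the other groups are given for 3 genes that were chosen for low p against the saline libraries at 24 h, so their distance from those libraries is a description. Ttc7b was at 417 ± 154 CPM (SD, n = 5) in saline libraries at 24 h. It was at 205 ± 24.7 (n = 5) in escalating and 212 ± 41.4 (n = 9) in nonescalating libraries at 24 h. At 1 month it was at 217 ± 24.3 (n = 4), 219 ± 19.7 (n = 5) and 239 ± 34.3 (n = 11) in escalating, saline and nonescalating libraries. Pde4a was at 141 ± 43.2 CPM in the saline libraries at 24 h. In the other 5 groups, in the same order, it was at 76.3 ± 10.7, 75.3 ± 11.6, 84.7 ± 12.4, 81.0 ± 1.99 and 86.2 ± 14.8. Fth1 was at 149 ± 19.2 CPM in the saline libraries at 24 h, at 268 ± 45.7 in escalating and 215 ± 36.4 in nonescalating libraries at 24 h, and at 208 ± 25.6, 219.8 ± 42.0 and 237 ± 73.5 at 1 month. The lowest saline library at 24 h for Ttc7b, 304 CPM, was above every library of the other 5 groups, which reached 300.1. For Pde4a the lowest, 94.8 CPM, was below the highest of those groups, 100.3, and for Fth1 the highest saline library at 24 h, 169 CPM, was above the lowest nonescalating library at 24 h, 167, and at 1 month, 147.7. Library sizes were scaled within each time, so levels at 24 h and 1 month were not tested against each other here.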

How the data were processed

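Ribosome-bound RNA of the dorsal striatum was sequenced. The deposited values are whole-number counts, 1 table for each library, made by the authors. They aligned the reads to mm10 with STAR 2.0.0e and counted them with HTSeq, per the submitters' processing notes. Neither the annotation nor the strand setting is given in the sources used here, and reads of overlapping genes and pseudogenes may be mixed. The analysis used 32531 named genes and dropped 5 summary lines and an empty entry without a gene name.

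Counts were filtered by filterByExpr, scaled by TMM and tested with edgeR 4.0.16 (quasi-likelihood test, R 4.3.3) in 1 fit of the 3 groups and 19 purified libraries at 24 h, with Benjamini-Hochberg adjusted p under 0.05. limma 3.58.1 and DESeq2 1.42.0 were alternatives. Of these methods only edgeR was run on simulated data. Fold changes are log2 with the standard error of the fit. CPM are counts per 1e6 on TMM-scaled library sizes. Gene positions were read from GENCODE M21 (GRCm38, the same build).

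The libraries, gene lists and tests were chosen with earlier results of these data known, and saline replicate 5 was known to stand apart. Genes named are the 10 with the lowest p in each direction, the 3 in each direction without saline replicate 5, up to 4 of each list described, and 12 fixed genes. Genes known only by record numbers were passed over. Some genes that met this rule or one of the lists are described by counts alone. A gene's groups do not overlap where its lowest CPM in 1 group is above the highest in the other. With 5 libraries a group, counts of 5394332 to 12889230 per library limit the precision for genes with few counts.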

Additional observations from a re-analysis of the deposited data

Results flagged for a closer look

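Within each group of 5, a value is listed here where its gap to the nearest other library was more than the 95% critical value of Dixon's test allows. In groups not chosen by their values, chance lists about 5%. Here 17 values were listed in 68 groups of values, 8 of them in saline replicate 5. Most of these groups are genes named for low p or for a call in these same libraries. Some were named with saline replicate 5 left out, so the 5% does not hold for them and the list is a description. That library stood above the other 4 saline libraries for Adgrd1 (115 CPM), Nnat (3163), Mmp24 (217), Smg9 (101), Adamts17 (93.6), Ssrp1 (145) and Trim27 (63.0), and below them for Prrt2 (174). Saline replicate 3 stood above its group for Ttc7b (687 CPM). Escalating replicate 5 stood above its group for Sap30bp (519 CPM), Nbas (164) and Srrm2 (1385). The Srrm2 value differed little in size from the other 4, at 1276 to 1302 CPM. Escalating replicate 2 had 16648 genes detected against 14851 to 15207, the lowest share of counts on oxidative phosphorylation genes (0.760% against 0.840% to 0.863%), and the highest Adgrd1 level of its group (5.46 CPM). Escalating replicate 3 was the highest for Ttc7b (249 CPM), still below every saline library, and escalating replicate 1 the highest for Klf7 (56.5 CPM).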

How the results depend on the processing

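For escalating against saline libraries at 24 h, the count of 0 calls held without each of the 10 libraries in turn, with size factors, without a filter, with a mean of at least 5 CPM, with voom and with the 10 libraries alone. It became 43 with all 39 libraries in 1 fit, 52 with DESeq2 and 47 with DESeq2 without saline replicate 5. The 1433 genes at an unadjusted p under 0.05 ranged from 1146 to 1916 when a library was left out, and became 2474 with all 39 libraries, 2691 without a filter, 924 with voom and 776 with the 10 libraries alone. With the replicate block the 8 libraries that share a number gave 230, against 591 for the same 8 without it, and 0 calls in both fits. Deviations of same-numbered libraries had correlations of -0.0686, 0.0140, -0.0887 and -0.0282, and no escalating library correlated best with the saline library of its number. No pairing by number was seen in these correlations, which are too few to exclude it. Escalating against nonescalating libraries gave 2 calls with all 39 libraries. The difference between the times gave 2 with DESeq2 and 0 to 1 when a library was left out, the 1 being Adgrd1 without saline replicates 2 or 6 or escalating replicate 2 at 24 h.

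Of the log2 fold changes of named genes, 2284 kept direction and call, 66 gained a call and 27 changed sign. Of the list medians 717 stayed within their spread and 39 moved, and of the counts 93 held and 26 moved. When a library was left out, Trim27 ranged from -0.29 to 1.57, Drd1 from -0.14 to 0.11, Drd2 from -0.53 to 0.0029, Fosb from -0.31 to 0.061, Tac1 from -0.16 to 0.35 and Tfrc from -1.26 to 0.19. Without saline replicate 5, DESeq2 and the other 9 libraries alone gave 1.57 and 1.56 for Trim27, 0.11 and 0.0998 for Drd1, -0.0685 and -0.0687 for Tac1, and 0.19 and 0.18 for Tfrc. With voom Trim27 was 1.33 and Drd1 0.043. With the replicate block Trim27 was 0.68, Drd1 0.026, Fosb 0.17 and Tac1 -0.15, and the same 8 libraries without it gave 0.031 for Fosb and -0.20 for Tac1. The cause was not tested. Genes of a few counts are limited by the shallow saline replicate 5.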

Other observations

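The median fold change shifted with gene length. Over 5 groups of genes of about equal size, ordered by exon length, the median log2 fold change between escalating and saline libraries was 0.03 in the shortest, -0.01, -0.05, -0.06 and -0.08 in the longest. Without saline replicate 5 the medians were -0.02, -0.01, -0.02, 0.01 and 0.00. Saline replicate 5 had the lowest share of counts on short genes, 10.6% against 12.6% to 14.4% in the other 9, and the highest on long genes, 39.9% against 34.5% to 38.1%. Circadian clock genes had 14 of 20 positive fold changes (median 0.11), where 47.0% of all genes were positive. Imprinted genes had 16 of 30 (median 0.04), so the value of Nnat was not shared by the imprinted list. Glycolysis genes, another part of energy metabolism, had a median of 0.06 over 18 genes and 0.10 without saline replicate 5, where the oxidative phosphorylation median went from 0.26 to 0.11. GABA receptor genes had 4 of 16 positive fold changes (median -0.09, and -0.17 without saline replicate 5), with 0 at an unadjusted p under 0.05.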
